A study of Mus musculus with 16 samples.

Results

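Genes whose products mark the chamber and the stage of heart muscle were examined in cultured juxtaglomerular (JG) cells. They were chosen by symbol and comprised the alpha and beta cardiac myosin heavy chains (Myh6 and Myh7), the ventricular, atrial and fetal myosin light chains (Myl2, Myl7 and Myl4), the adult and fetal forms of cardiac troponin I (Tnni3 and Tnni1), the atrial and brain natriuretic peptides (Nppa and Nppb) and sarcolipin (Sln). All 10 genes had a row in the count table of 46078 genes. A gene was tested when 3 or more of the 4 replicates of any group reached 1 CPM (counts per 1000000 reads counted in the library), which 7 of the 10 genes did. Myl7, Sln and Tnni1 did not.

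JG cells are the renin-producing cells at the kidney's afferent arteriole. The cells studied were engineered to carry YFP under the renin promoter, in all groups alike, and were transfected with a non-mammalian control microRNA precursor or with miR-106b. RNA was taken 48 h later from separate replicate cultures, either as polyA RNA from cells lysed on the dish or as RNA bound to immunoprecipitated Ago2 (Ago2-IP), the protein that holds microRNAs and their target mRNAs in the RNA-induced silencing complex. The 16 libraries formed 4 groups of 4, named by the kind of RNA (polyA or Ago2-IP) and the transfection (control or miR-106b). The mature sequence of the transfected microRNA is shown because its seed, bases 2 to 8 in capitals, determines which mRNAs it pairs with. It lies at chr5:138165787-138165807 on the minus strand (RefSeq, GRCm38.p6).
mmu-miR-106b-5p: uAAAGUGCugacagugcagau

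Heart muscle builds its contractile filaments from chamber-specific and stage-specific versions of the same proteins. In the mouse, Myh6 and Tnni3 replace Myh7 and Tnni1 in the ventricle around and after birth, Myl2 is the regulatory light chain of the ventricle and Myl7 that of the atrium, and Myl4 is the essential light chain of the atrium and the fetal heart where Myl3 serves the adult ventricle. Nppa and Nppb encode secreted natriuretic peptides that are high in the atrium, in the fetal ventricle and in the stressed ventricle, and sarcolipin is a small inhibitor of the SERCA calcium pump that is mainly atrial in the mouse heart.

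The total of counted reads ranged from 2579086 to 9459585, so that 3 counts, the limit that a count of 0 allows, corresponded to 0.317 CPM at the greatest and 1.16 CPM at the smallest depth. Limits of this kind, and the Wilson intervals on summed counts below, cover counting error only and not the spread between replicate libraries. The reads carried no molecular identifiers, so that copies of the same molecule cannot be told from separate molecules. Ren1, the renin gene that defines JG cells, had 0 counts in all 16 libraries, and Akr1b7, another JG marker, had at most 2 counts. The 10 heart genes together took 1.08 to 1.53% of polyA reads with control and 2.096 to 3.64% with miR-106b, and 4.86 to 5.20% of Ago2-IP reads with control and 4.72 to 5.20% with miR-106b. A set of 14 other cardiac genes (Actc1, Tnnt2, Tnnc1, Mybpc3, Actn2, Ttn, Myom1, Ldb3, Csrp3, Tcap, Ryr2, Pln, Casq2 and Mb) took similar shares, from 1.18% in the lowest polyA control library to 5.70% in the highest Ago2-IP control library. In RNA from a whole culture, fewer cells of a type and less RNA per cell cannot be told apart. Gm10800, a satellite-like locus, ranged from 225 to 15036 CPM across libraries, and its part in the results was not tested. No batch was named in the labels.

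The alpha myosin heavy chain gene Myh6 (chr14:54941981-54966927, minus strand, GRCm38) took the most reads of the 10 genes in every library. Its level in the 4 polyA control libraries was 10722, 8371, 9054 and 11928 CPM. After miR-106b the polyA libraries held 16276, 28294, 20579 and 27514 CPM, each above every control library. Ago2-IP libraries held 40210, 40531, 39333 and 37803 CPM with control and 37892, 36737, 39127 and 40384 CPM with miR-106b. The Ago2-IP groups overlapped with each other and lay above all polyA libraries. How many of all genes had groups apart in CPM, for Myh6 and the genes that follow, was not counted. In the tests below, 19.0% of all genes tested were called higher in polyA RNA with miR-106b, and 35.4% in Ago2-IP against polyA control. Myh6 alone took 0.837 to 4.05% of all reads of a library.

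The beta heavy chain gene Myh7 (chr14:54970688-54994634, minus strand) lies directly upstream of Myh6 on the same strand. PolyA libraries held 130, 105, 109 and 148 CPM with control and 224, 344, 252 and 340 CPM with miR-106b. Ago2-IP libraries held 508, 517, 505 and 458 CPM with control and 459, 452, 484 and 493 CPM with miR-106b. The order of the groups was that of Myh6 and the polyA groups again did not overlap. Myh7 supplied between 1.19 and 1.36% of the reads on both heavy chains in every library, and the ratio of Myh6 to Myh7 counts lay between 72.7 and 83.0 (median 81.1, n = 16 libraries). These shares of Myh7 are uncertain in 2 respects. Of the 50-base windows of its longest coding transcript, 22.2% are identical to a window of Myh6, with a longest shared run of 245 bases, and how reads that fit both genes were counted is not given in the sources used here. The Myh7 exons also share 484 bases with the antisense RNA Mhrt, which had 75 to 210 counts per library, and the libraries kept no strand.

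Of the light chains, the ventricular regulatory gene Myl2 (chr5:122100951-122113472, plus strand) was high and the atrial regulatory gene Myl7 (chr11:5896637-5898782, minus strand) was at the limit of detection. In polyA RNA Myl2 had 1273, 962, 1036 and 1399 CPM with control and 1908, 3308, 2365 and 3188 CPM with miR-106b. In Ago2-IP RNA it had 4710, 4636, 4532 and 4457 CPM with control and 4463, 4280, 4644 and 4748 CPM with miR-106b. The polyA groups did not overlap, and the Ago2-IP groups did. Myl7 had 0 to 8 counts per library, with 0 counts in 5 libraries and more than 3 counts in 5 others. Summed over the 4 libraries of a group, Myl7 had 3 polyA counts with control and 7 with miR-106b, and 21 Ago2-IP counts with control and 5 with miR-106b. It was thus 0.00940% of the counts on Myl7 and Myl2 in polyA control (Wilson 95% interval 0.00320 to 0.0276%) and 0.0298% in Ago2-IP control (0.0195 to 0.0456%).

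The essential light chains showed the same contrast. Myl4, of the atrium and the fetal heart (chr11:104550663-104595753, plus strand), had 4 to 22 counts per library and passed the filter, at 2.35 ± 0.965 CPM (SD, n = 4) with control and 2.84 ± 1.05 with miR-106b in polyA RNA, and 1.64 ± 0.381 and 2.54 ± 0.996 in Ago2-IP RNA. All 4 groups overlapped in Myl4. Its partner Myl3, the essential light chain of the adult ventricle, stood at 1294 ± 206 CPM in polyA control but at 5068 ± 139 CPM in Ago2-IP control. Myl4 made up 0.177% of the counts on both genes in polyA control (Wilson 95% interval 0.139 to 0.227%) and 0.0321% in Ago2-IP control (0.0218 to 0.0474%).

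Adult troponin I, the inhibitory subunit of the cardiac troponin complex, is encoded by Tnni3 (chr7:4518305-4524229, minus strand). Its polyA level was 1660, 1270, 1325 and 1760 CPM with control and 2466, 4296, 3027 and 4066 CPM with miR-106b. Its Ago2-IP level was 6013, 6062, 5878 and 5704 CPM with control and 5723, 5564, 5978 and 6109 CPM with miR-106b. As for Myl2, the 2 polyA groups were apart and the 2 Ago2-IP groups were not. The fetal and slow skeletal form Tnni1 (chr1:135779434-135810989, plus strand) had 6, 9, 11 and 10 counts in polyA control and 1, 3, 6 and 2 counts in polyA miR-106b. Ago2-IP libraries held 1, 2, 0 and 2 Tnni1 counts with control and 4, 0, 1 and 0 with miR-106b. In CPM Tnni1 averaged 1.33 ± 0.440 in polyA control and 0.860 ± 0.628 in polyA miR-106b (SD, n = 4). The Ago2-IP means were 0.319 ± 0.240 with control and 0.469 ± 0.737 with miR-106b. Tnni1 was thus highest, by counts and by mean CPM, in the deepest group, polyA control, where Tnni3 was lowest. It made up 0.0872% of the counts on both troponin I genes there (Wilson 95% interval 0.0630 to 0.121%), against 0.0242% in polyA miR-106b (0.0138 to 0.0423%) and 0.00550% in Ago2-IP control (0.00235 to 0.0129%).

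The natriuretic peptide genes lie next to each other on chromosome 4 and both were detected in every library. Nppa (chr4:148000722-148002079, plus strand) had 20.6, 17.9, 14.6 and 24.6 CPM with control and 28.3, 57.2, 37.0 and 55.8 CPM with miR-106b in polyA RNA. In Ago2-IP libraries it had 78.5, 74.0, 68.7 and 69.97 CPM with control and 76.8, 76.2, 76.1 and 77.9 CPM with miR-106b. Nppb (chr4:147985788-147987205, plus strand) had 39.7, 33.6, 36.2 and 45.3 CPM with control and 54.2, 114, 81.3 and 106 CPM with miR-106b in polyA RNA, and 143, 171, 160 and 152 CPM with control and 156, 134, 150 and 166 CPM with miR-106b in Ago2-IP RNA. As for Myh6, the polyA groups did not overlap for either gene, the Ago2-IP groups did, and all Ago2-IP libraries lay above all polyA libraries. The ratio of Nppa to Nppb counts was 0.403 to 0.569 over the 16 libraries (median 0.504). Most exon bases of Nppa, 532 of 865, are shared with the antisense gene Gm13054, whose own count was 0 or 1.

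Sarcolipin (Sln, chr9:53850251-53853844, plus strand) had 1 count in 1 polyA control and 1 polyA miR-106b library and 0 counts in the other 14 libraries. Its level was therefore not detectable at this depth, and no fold change was read from it.

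**Figure D1:**
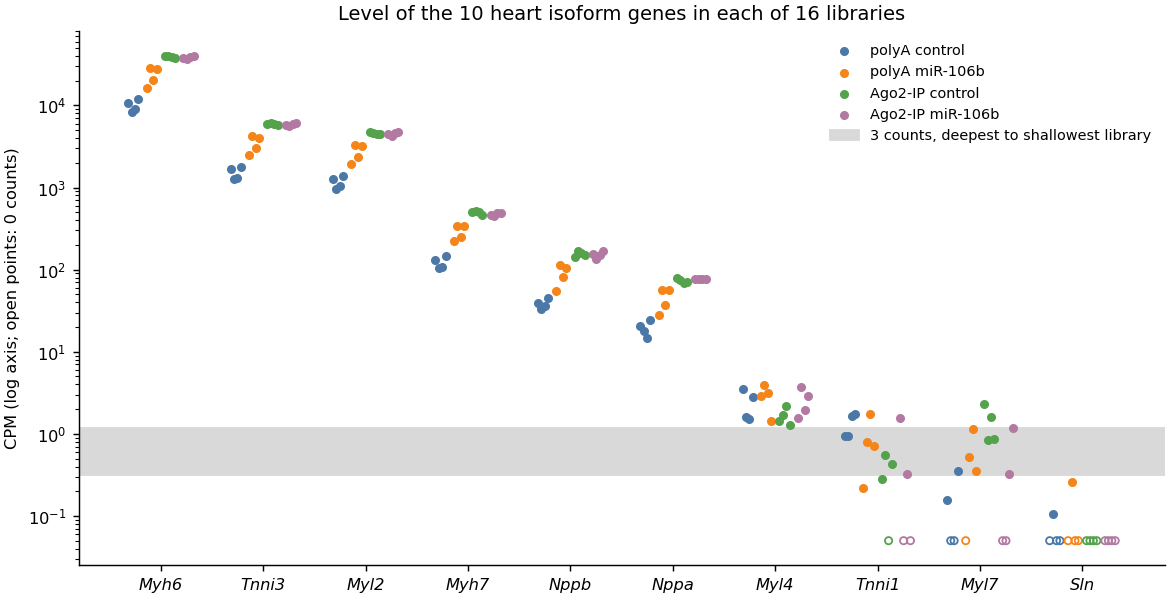
Level of each of the 10 genes in each of the 16 libraries, in CPM on a log axis, with 4 points per group. Open points at the bottom mark 0 counts and the grey band spans the level of 3 counts from the deepest to the shallowest library. Myh6, Tnni3, Myl2, Myh7, Nppb and Nppa rise from polyA control to the Ago2-IP groups, whereas Myl4, Tnni1, Myl7 and Sln stay at or near the band.

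Levels of different genes were compared per length, as CPM per kb of exon. In all 4 groups the order was Myh6, Tnni3, Myl2, Nppb, Nppa and Myh7, and each stood above the next in 4 of 4 libraries. In Ago2-IP control Myh6 reached 5868 ± 182 CPM per kb (SD, n = 4), Tnni3 2867 ± 77.6, Myl2 2351 ± 57.4, Nppb 201 ± 15.03, Nppa 84.2 ± 5.13 and Myh7 57.7 ± 3.07. Myh6 was 2.02 to 2.05 times Tnni3 in the 4 groups, and Tnni3 was 1.22 times Myl2 in each. The ranges of Tnni3 and Myl2, and those of Nppa and Myh7, overlapped between libraries within the polyA groups, so that these neighbours were separated within each library but not across libraries. The step from Myh7 to the next gene was 28.2 times with control and 39.2 times with miR-106b in polyA RNA, and 24.3 and 86.9 times in Ago2-IP RNA. That next gene was Myl4 in polyA control and Myl7 in the other 3 groups, both resting on few counts. Below it, Myl4, Myl7, Tnni1 and Sln changed order between groups, and most neighbours overlapped. With the length of the longest coding transcript in place of all exons, the means of Tnni3 and Myh6 were nearly equal, with Tnni3 at 1.002 to 1.016 times Myh6. Their ranges then overlapped in all 4 groups, and Tnni3 was above Myh6 in 2 of 4 libraries of each polyA group and in 4 of 4 of each Ago2-IP group. The step below Myh7 was then 7.93 and 15.4 times in polyA RNA and 33.5 and 28.1 times in Ago2-IP RNA, to Myl7 in Ago2-IP control and to Myl4 in the others. With that length Nppa was 1.06 to 1.17 times Myh7, above it in 4 of 4 libraries of Ago2-IP miR-106b and in 3 of 4 of each other group. Counting only exon bases shared with no other gene put Nppa above Nppb, at 1.09 to 1.19 times. Their ranges then overlapped except in Ago2-IP miR-106b, and in polyA control Nppa was above Nppb in 3 of 4 libraries.

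The balance of paired genes was compared between groups as the log2 ratio of their counts within each library, which does not depend on how libraries are scaled. Exact two-sided permutation tests over the 70 relabellings of 4 against 4 libraries were adjusted over 20 tests. Their smallest p is 0.0286, and 12 of the 20 tests would have to reach it for any to pass the threshold of 0.05. None of the 5 balances passed in any of the 4 comparisons. The Myh6:Myh7 balance averaged 6.35 ± 0.027 with control and 6.31 ± 0.083 with miR-106b in polyA RNA, and 6.31 ± 0.038 and 6.35 ± 0.013 in Ago2-IP RNA (log2, SD, n = 4). Its SD over all 16 libraries was 0.047, where counting error alone gives 0.042. The interval of the difference between polyA miR-106b and polyA control was -0.19 to 0.043 (97.1% confidence, from inversion of the exact permutation test, adjusted p = 0.672), and that between Ago2-IP and polyA control was -0.093 to 0.050. Nppa:Nppb varied with an SD of 0.144 over the 16 libraries against 0.131 from counting, and polyA miR-106b differed from polyA control by 0.014 (interval -0.25 to 0.39).

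The balances with a rare partner varied more between groups. Tnni3:Tnni1 was 10.1 ± 0.47 in polyA control and 11.97 ± 0.93 in polyA miR-106b, a difference of 1.87 on the log2 scale with no overlap between the groups (exact permutation p = 0.0286, adjusted p = 0.190). It was 13.9 ± 1.04 in Ago2-IP control, 3.80 above polyA control, again without overlap (exact permutation p = 0.0286, adjusted p = 0.190). Myl4:Myl3 fell by 2.37 from polyA control to Ago2-IP control without overlap (exact permutation p = 0.0286, adjusted p = 0.190), and the polyA groups differed by -0.89 with overlap (exact permutation p = 0.0571, adjusted p = 0.229). Myl7:Myl2 overlapped between groups in all 4 comparisons. With miR-106b it differed from control by 0.54 in polyA RNA (exact permutation p = 0.571, adjusted p = 0.672) and by -1.94 in Ago2-IP RNA (exact permutation p = 0.0857, adjusted p = 0.229). Between Ago2-IP and polyA RNA it differed by 1.32 with control (exact permutation p = 0.114, adjusted p = 0.229) and by -1.16 with miR-106b (exact permutation p = 0.257, adjusted p = 0.396). These ratios rest on 0 to 22 counts of the rarer gene per library. The share of all genes that shifted likewise against Tnni3 or Myl3 was not counted. Against the 14 cardiac genes, the groups did not overlap for 65.6% of all genes tested in polyA miR-106b against control. In Ago2-IP against polyA control the share was 83.3%. With libraries scaled to those 14 genes, the median of all genes was -1.23 and -2.34 in these comparisons. Over the 16 libraries the SD was 1.93 for Tnni3:Tnni1, where counting error alone gives 1.16, and 1.04 for Myl4:Myl3, where it gives 0.493, whereas Myl7:Myl2 had 1.28 against 1.35. Within polyA control the SD of Tnni3:Tnni1 was 0.472 against 0.479 from counting. The differences depend on the 0.5 added to each count. With 2 counts added, Tnni3:Tnni1 differed by 1.46 between the polyA groups and by 2.93 between Ago2-IP and polyA control, and Myl4:Myl3 by -2.21 in the latter comparison. Myl7:Myl2 then differed by 0.14 in polyA RNA and -0.95 in Ago2-IP RNA with miR-106b, and by 0.27 with control and -0.82 with miR-106b between Ago2-IP and polyA RNA. Leaving out 1 library moved the Myl7:Myl2 difference in polyA RNA between 0.00081 (without polyA miR-106b replicate 3) and 1.08 (without replicate 1 of that group), and that in Ago2-IP RNA between -2.53 and -1.52. Between Ago2-IP and polyA RNA it ran from 0.93 to 1.77 with control and from -1.75 to -0.62 with miR-106b. The Myl4:Myl3 difference between the polyA groups ran from -1.06 to -0.52, the latter without polyA miR-106b replicate 4, whose balance was -11.1 where the others of its group had -9.83 to -9.51.

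**Figure D2:**
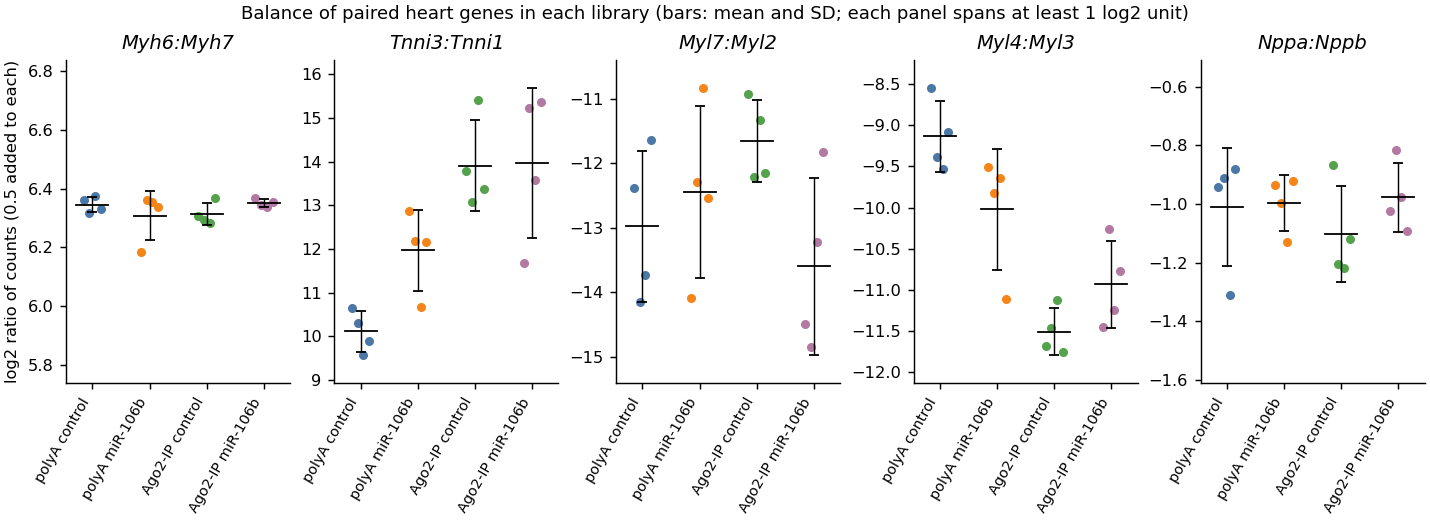
Log2 ratio of the counts of paired heart genes in each library, with 0.5 added to each count, as points by group with mean and SD. Myh6:Myh7 and Nppa:Nppb keep nearly the same level in the 4 groups, Tnni3:Tnni1 is lowest in polyA control, and Myl4:Myl3 is highest there. The panels have their own axes, each spanning at least 1 log2 unit.

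With miR-106b, 6 of the 7 genes tested rose in polyA RNA relative to control (edgeR's quasi-likelihood test with TMM scaling, Benjamini-Hochberg adjusted over 14897 genes). The background is 19.0% of all genes tested called higher. The 6 changes were nearly equal. They were 1.24 ± 0.22 for Myh6 (log2 fold change ± SE, adjusted p = 0.00107), 1.26 ± 0.17 for Myh7 (adjusted p = 0.000683), 1.23 ± 0.20 for Myl2 (adjusted p = 0.000749), 1.23 ± 0.20 for Tnni3 (adjusted p = 0.000747), 1.22 ± 0.23 for Nppa (adjusted p = 0.00153) and 1.23 ± 0.20 for Nppb (adjusted p = 0.000819), or 2.34- to 2.40-fold. Myl4 differed by 0.35 ± 0.39 (adjusted p = 0.498). The median of all genes was -0.05. The 14 other cardiac genes all rose, by a median of 1.23 (1.19 to 1.27), a range that holds the changes of the 6 heart genes. For all 6 genes polyA miR-106b replicate 1 was the lowest of its group.

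In Ago2-IP RNA none of the 7 genes was called between miR-106b and control, as was the case for 0% of the 14897 genes with this test, of which 826 had an unadjusted p under 0.05. Myh6 differed by -0.03 (95% interval -0.10 to 0.03), Myl2 by -0.01 (-0.07 to 0.04), Tnni3 by -0.02 (-0.07 to 0.04), Nppb by -0.05 (-0.17 to 0.08), Nppa by 0.08 (-0.08 to 0.24) and Myh7 by -0.07 (-0.16 to 0.02) on the log2 scale. A change of the size seen in polyA RNA lay outside these 6 intervals. That of Myl4 was wide, at 0.66 (-0.34 to 1.65).

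The comparison of Ago2-IP with polyA RNA used the same polyA control libraries as above. With control transfection, 6 of 7 genes were higher in Ago2-IP, against 35.4% of all genes tested. The log2 differences were 2.27 ± 0.09 for Myh6, 2.31 ± 0.09 for Myh7, 2.26 ± 0.09 for Myl2, 2.27 ± 0.09 for Tnni3, 2.20 ± 0.12 for Nppa and 2.31 ± 0.09 for Nppb, or 4.61- to 4.97-fold, with adjusted p between 1.14e-16 and 2.34e-13 (edgeR). Myl4 differed by -0.20 ± 0.41 (adjusted p = 0.665). When genes under the filter were kept, Myl7 was called higher (3.59 ± 0.87, adjusted p = 0.000139) and Tnni1 lower (-1.75 ± 0.74, adjusted p = 0.0459) in Ago2-IP control, on 21 against 3 and 5 against 36 summed counts. In that fit 17.8% of all genes were called higher and 21.4% lower. With miR-106b transfection neither was called, with Myl7 at -0.19 (adjusted p = 0.932) and Tnni1 at -0.84 (adjusted p = 0.561), and with libraries scaled to cardiac genes Myl7 in Ago2-IP against polyA control was at 1.58 (adjusted p = 0.150).

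With miR-106b transfection, the same 6 genes were higher in Ago2-IP than in polyA RNA, where 18.6% of all genes tested were higher. The differences were smaller, from 0.85 ± 0.15 for Myh7 to 0.94 ± 0.19 for Nppa, and -0.01 ± 0.44 for Myl4. The difference between the transfections was tested as the change of the Ago2:polyA ratio in a fit of all 16 libraries. It was negative for 6 of 7 genes, against 19.7% of all genes tested that were called lower. Myh6 fell by 1.42, Myh7 by 1.48, Myl2 by 1.39, Tnni3 by 1.39, Nppa by 1.29 and Nppb by 1.42 on the log2 scale, with adjusted p between 1.64e-05 and 0.000558 (edgeR). Myl4 changed by 0.17 ± 0.59 (adjusted p = 0.860). The median over the 14 other cardiac genes was -1.40, and that of all genes was -0.07.

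To set the heart genes against other cardiac transcripts of the same library, the mean log2 CPM of the 14 cardiac genes was subtracted from that of each gene. The 6 abundant genes then varied little over the 16 libraries. Their SD was 0.009 for Myh6, 0.018 for Myl2, 0.020 for Tnni3, 0.049 for Myh7, 0.089 for Nppb and 0.109 for Nppa, where counting error alone gives 0.008, 0.015, 0.014, 0.043, 0.076 and 0.108. Their group means in CPM, by contrast, spanned 3.93 to 4.05 times. On this measure the groups did not overlap for 65.6% of all genes tested in polyA miR-106b against control, 3.32% in Ago2-IP miR-106b against control, 83.3% in Ago2-IP against polyA control and 58.0% in Ago2-IP against polyA RNA with miR-106b. Groups of the 6 abundant genes failed to overlap in 1 case, that of Myh6, which was 0.016 lower in Ago2-IP than in polyA RNA with miR-106b (exact permutation p = 0.0286, adjusted p = 0.163). Relative to the cardiac genes, Tnni1 was 1.86 lower in polyA miR-106b than in polyA control and 3.80 lower in Ago2-IP control than in polyA control, and Myl4 was 2.38 lower in the second of these. With a prior of 2 counts the Tnni1 values were -1.46 and -2.93 and that of Myl4 was -2.22. In each of the 3 cases the groups did not overlap (exact permutation p = 0.0286, adjusted p = 0.163). Sln was not read, at 3 counts or fewer in both groups. No gene passed the threshold after adjustment over the 40 tests, for which 23 tests at the smallest p would be needed.

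**Figure D3:**
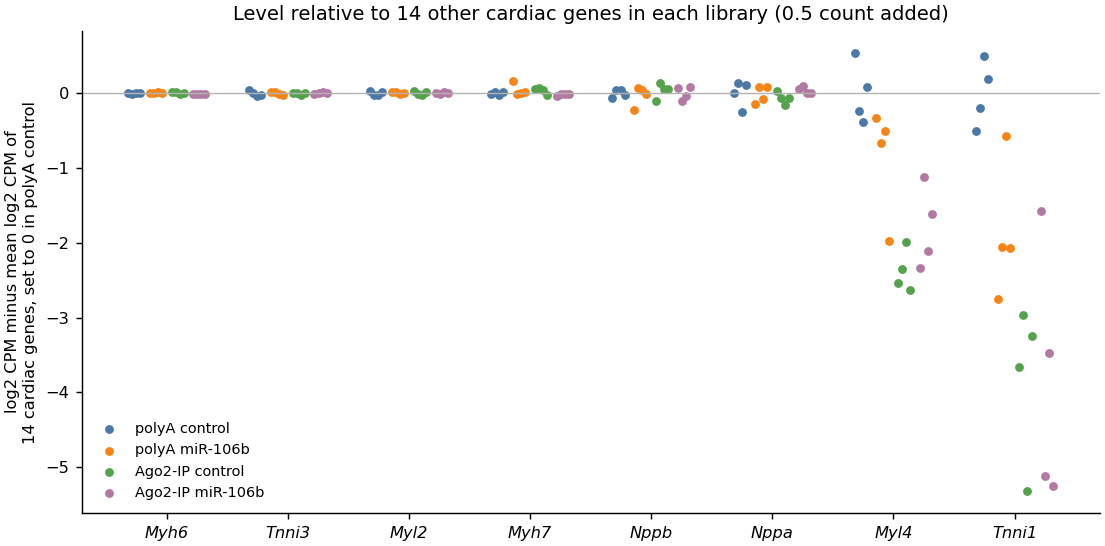
Level of 8 of the genes relative to the mean of 14 other cardiac genes in each library, on the log2 scale and set to 0 at the mean of polyA control. Myh6, Tnni3, Myl2, Myh7, Nppb and Nppa lie along 0 in all groups, and Myl4 and Tnni1 lie below 0 in most other libraries. Tnni1 points rest on 0 to 11 counts.

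The same question was put to the edgeR fits by scaling each library to the geometric mean of the 14 cardiac genes instead of by TMM. The median of all genes then moved to -1.23 in polyA miR-106b against control, 0.02 in Ago2-IP miR-106b against control, -2.34 in Ago2-IP against polyA control, -1.01 in Ago2-IP against polyA with miR-106b, and 1.27 in the change of the ratio. The 6 abundant genes stayed within 0.12 of 0 on the log2 scale in all 5 comparisons and none of them was called. With miR-106b in polyA RNA, none of 7 genes was called where 73.4% of all genes were, in either direction, and Myl4 stood at -0.81 ± 0.38 (adjusted p = 0.0715). In Ago2-IP miR-106b against control none was called, against 0.0201% of all genes, with Myl4 at 0.68 ± 0.50 (adjusted p = 0.968). Between Ago2-IP and polyA control, Myl4 fell by 2.44 (adjusted p = 4.67e-06), as did 84.2% of all genes tested. Between Ago2-IP and polyA RNA with miR-106b none was called, against 61.7% of all genes, with Myl4 at -0.95 ± 0.45 (adjusted p = 0.0855), and in the change of the ratio Myl4 rose by 1.49 (adjusted p = 0.0240), as did 65.6% of all genes tested. Relative to cardiac transcripts, Myl4 was thus called in 2 of the 5 comparisons. Its values there, -2.44 and 1.49, lay near the medians of all genes, -2.34 and 1.27. Without polyA control replicate 1 the rise of Myl4 in the ratio was 1.27 (adjusted p = 0.0563), and without Ago2-IP miR-106b replicate 2 it was 1.21 (adjusted p = 0.0730).

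**Figure D4:**
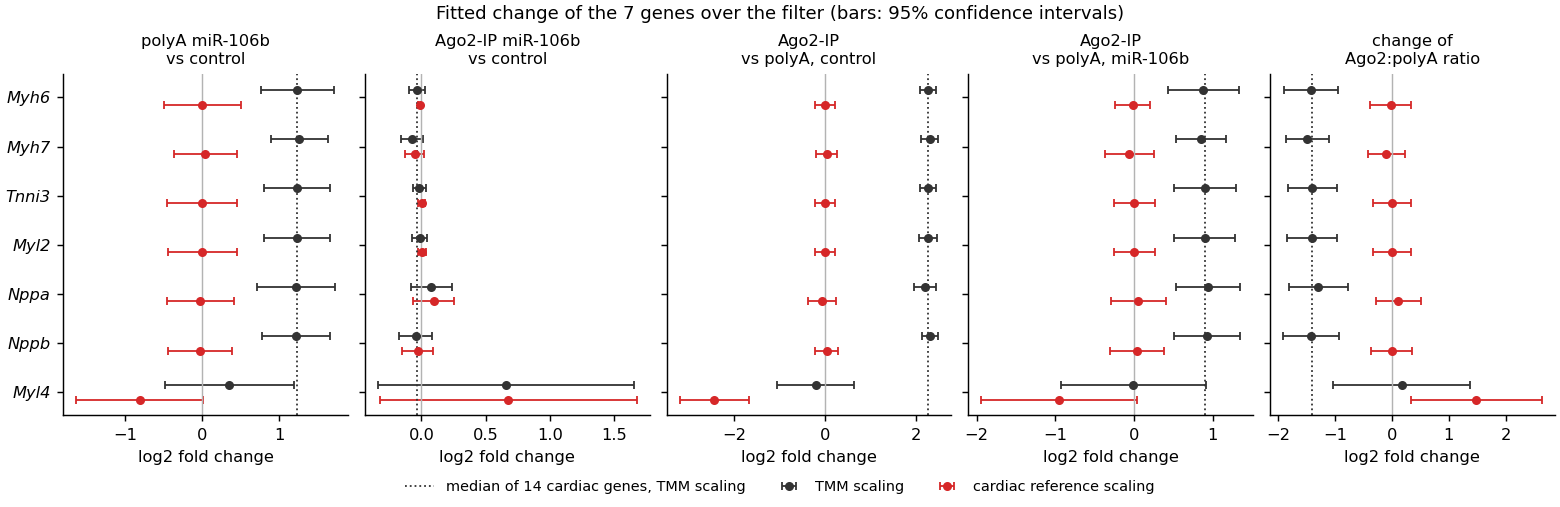
Fitted log2 fold change with 95% confidence interval of the 7 genes tested in 5 comparisons, with libraries scaled by TMM (black) or to 14 cardiac genes (red). The dotted line is the median of the 14 cardiac genes under TMM. The 6 abundant genes lie on that line under TMM and at 0 under the other scaling, and the point estimates of Myl4 lie away from them, with wide intervals.

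Other genes of the chambers and stages were counted from lists of genes, for which the median of all genes was -0.05 in polyA RNA with miR-106b and -0.06 in Ago2-IP against polyA control. Of all genes tested, 19.0% were called higher and 21.5% lower in the first comparison, and 35.4% higher and 37.9% lower in the second, and the counts of each list stand against these shares. In polyA RNA with miR-106b, 4 of 5 tested ventricular genes rose (median 1.21), among them Kcnip2, a potassium channel partner, at 1.21 ± 0.19, and in Ago2-IP against polyA control 5 of 5 were higher (median 2.19). Irx4, a ventricular transcription factor, had 18.2 to 108 CPM, whereas Hand1 had 0 to 3 counts. Of 11 tested atrial genes 7 rose with miR-106b (median 0.97), and 8 were higher and 2 lower in Ago2-IP control. The 2 lower ones, Dkk3 (-3.21 ± 0.09) and Nr2f2 (-1.19 ± 0.10), were the most abundant of that list and are also expressed outside the heart. The 7 that rose were Kcnj3, Kcnj5 and Kcna5, which encode potassium channel subunits, the transcription factor gene Tbx5, the connexin gene Gja5, Sbk2 and Stard10, at 0.80 to 1.39, and these and Sbk3 were higher in Ago2-IP control by 1.46 to 2.48. Mybphl and Bmp10, also on that list, were at 0 to 4 and 0 to 1 counts and were not tested. All 12 genes of adult heart metabolism and structure rose with miR-106b (median 1.23) and were higher in Ago2-IP control (median 2.26). Cox6a2, a subunit of cytochrome c oxidase in muscle, differed by 1.24 ± 0.19 and 2.25 ± 0.09, and Ckm, muscle creatine kinase, by 1.24 ± 0.20 and 2.25 ± 0.10.

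Genes of the fetal and stressed heart other than the 10 rose in 4 of 5 cases with miR-106b (median 1.095), and 4 were higher and 1 lower in Ago2-IP control (median 2.16). Acta1, skeletal alpha actin, rose by 1.22 ± 0.18 and Ankrd1, a stress-induced ankyrin repeat protein, by 0.53 ± 0.16. Acta2, the fifth of them and a smooth muscle actin, was at -0.33 ± 0.18 with miR-106b (adjusted p = 0.154) and was the one lower in Ago2-IP control, at -1.29 ± 0.07. Of 7 tested genes of natriuretic peptide processing, receptors, clearance and signalling, 3 rose with miR-106b (median 0.74) and 4 were higher in Ago2-IP control (median 0.81). Furin, a protease that cleaves precursor proteins, differed by 0.29 ± 0.11 and 0.81 ± 0.06, and Npr2, a receptor of C-type natriuretic peptide, by 0.20 ± 0.13 (adjusted p = 0.235) and -0.01 ± 0.08 (adjusted p = 0.906). Of 6 tested SERCA genes, 3 of which (Ryr2, Pln and Casq2) are also among the 14 cardiac genes, 5 rose with miR-106b (median 1.20) and 6 were higher in Ago2-IP control (median 2.26). Atp2a2, the cardiac calcium pump that sarcolipin inhibits, rose by 1.05 ± 0.19 with miR-106b, and its level ran from 2771 CPM in the lowest polyA control library to 11906 CPM in the highest Ago2-IP control library.

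Markers of several other cell types moved as well, against the same shares of all genes (19.0% higher with miR-106b and 35.4% higher in Ago2-IP control). All 10 endothelial and blood genes rose with miR-106b (median 1.24) and were higher in Ago2-IP control (median 2.28), with a summed level of 270 to 409 CPM with control and 530 to 970 CPM with miR-106b in polyA RNA, and 1266 to 1337 and 1189 to 1311 CPM in Ago2-IP RNA. Cdh5, vascular endothelial cadherin, differed by 1.28 ± 0.18 and 2.26 ± 0.09. All 5 fibroblast genes rose with miR-106b (median 1.24) and were higher in Ago2-IP control (median 1.46). Their summed level ran from 7236 CPM in the lowest polyA control to 15575 CPM in the highest polyA miR-106b library. In Ago2-IP RNA it was 8916 to 9020 CPM with control and 8701 to 9044 CPM with miR-106b. Nearly all of this sum was Col1a1, a collagen gene, at 7107 to 15096 CPM, and no other gene of the list passed 364 CPM. Of 9 smooth muscle and mural genes 4 rose and 1 fell with miR-106b (median 0.59), and 6 were higher and 2 lower in Ago2-IP control (median 1.26). Those that rose were Rgs5 (1.18), Myh11 (1.08), Pdgfrb (0.84) and Notch3 (0.59), which were higher in Ago2-IP control by 2.23, 2.20, 1.28 and 1.26. Tagln, an actin-binding protein of smooth muscle, was the one that fell, at -0.48 ± 0.15, and with Acta2 was lower in Ago2-IP control, at -2.19 ± 0.08. Of 15 skeletal muscle genes only 6 were tested, of which 2 rose with miR-106b (median 1.004) and 4 were higher in Ago2-IP control (median 2.13), and the summed level of all 15 was 8.89 to 33.3 CPM. Of 8 JG and kidney genes 1 was tested, Lrp2, an endocytic receptor of the proximal tubule, which fell by 1.07 with miR-106b (adjusted p = 0.0445) and was at -3.40 ± 0.62 in Ago2-IP control (adjusted p = 0.00116). Whether other cells were present, and what part they had in the levels of the heart genes, was not tested.

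Across the 16 libraries, log2 CPM of each of the 6 abundant genes correlated with the mean z-score of the other tested genes at Pearson's r = 0.971 to 0.983, and that of Myl4 at 0.0997. The genes outside the 10 with the most similar pattern were Grip2 (r = 0.992), Syngr1 (0.992), Tnni3k (0.991), Rxrg (0.990) and Mypn (0.990), with mean levels of 50.4 to 232 CPM. These points share 4 groups whose means differ, and the values are descriptions over 16 libraries.

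The 3′UTRs of the 10 genes were searched for the sites that pair with the miR-106b seed printed above, which are GCACTTT and, one base further along, CACTTTA. None was present in the longest annotated 3′UTR of any of the 10, which are 43 to 992 bases long. Of 13222 tested genes with a 3′UTR, whose median length was 1222 bases, 22.2% held at least 1 such site.

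Promoters are shown for the heavy chain genes and the natriuretic peptide genes, which moved together, and for Myl7, which stayed at the limit of detection. Each run is the 250 bases before the RefSeq start (GRCm38.p6), and capitals mark matches on either strand to 4 motifs. The Myh6 run lies within the gene span given above. The Nppb run extends past the gene start given above, at base 147985788. The first is a site of the GATA family of transcription factors, searched as the hexamer AGATAA and in 3 further spellings. The spelling that differs from it at the start reads TGATAA. Another, which differs at the end, reads AGATAG. The one that differs at both ends reads TGATAG. The second motif is the MCAT element of muscle promoters, CATTCC, and the third is the core of the promoter box TATAAA. The fourth is a CArG box, by its name alone. Of 32851 such windows 26.5% held a GATA hexamer, 12.6% an MCAT element, 12.4% a TATAAA and 1.47% a CArG box.
Myh6 promoter, chr14:54966608-54966857, - strand: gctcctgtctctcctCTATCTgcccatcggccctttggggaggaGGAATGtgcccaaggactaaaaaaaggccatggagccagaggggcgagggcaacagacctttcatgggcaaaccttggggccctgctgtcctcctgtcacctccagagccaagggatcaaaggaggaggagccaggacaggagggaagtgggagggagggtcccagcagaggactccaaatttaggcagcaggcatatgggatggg
Myh7 promoter, chr14:54994627-54994876, - strand: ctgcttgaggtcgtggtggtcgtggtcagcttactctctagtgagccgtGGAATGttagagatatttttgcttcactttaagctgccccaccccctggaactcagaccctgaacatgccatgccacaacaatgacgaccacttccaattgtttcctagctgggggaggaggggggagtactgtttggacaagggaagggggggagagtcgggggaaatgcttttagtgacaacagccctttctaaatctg
Nppa promoter, chr4:148000472-148000721, + strand: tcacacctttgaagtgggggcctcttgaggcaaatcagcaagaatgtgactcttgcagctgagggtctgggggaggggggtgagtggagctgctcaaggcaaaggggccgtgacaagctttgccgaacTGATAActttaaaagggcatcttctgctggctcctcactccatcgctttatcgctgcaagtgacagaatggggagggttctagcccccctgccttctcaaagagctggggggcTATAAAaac
Nppb promoter, chr4:147985650-147985899, + strand: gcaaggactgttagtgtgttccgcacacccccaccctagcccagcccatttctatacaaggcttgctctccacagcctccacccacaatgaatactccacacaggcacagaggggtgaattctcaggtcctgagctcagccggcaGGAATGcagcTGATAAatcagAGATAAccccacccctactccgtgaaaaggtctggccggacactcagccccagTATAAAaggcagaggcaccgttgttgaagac
Myl7 promoter, chr11:5898783-5899032, - strand: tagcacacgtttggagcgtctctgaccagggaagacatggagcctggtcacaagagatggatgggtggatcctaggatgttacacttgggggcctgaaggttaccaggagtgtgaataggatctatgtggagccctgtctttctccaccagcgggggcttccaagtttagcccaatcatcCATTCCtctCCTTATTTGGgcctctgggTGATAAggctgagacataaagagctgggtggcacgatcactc

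A GATA hexamer was found for Myh6, Myl7, Nppa and Nppb, with 2 in Nppb, and an MCAT element for Myh6, Myl7, Nppb and the Myh7 window shown. Myh7 and Myl2 have 2 RefSeq windows each. The other Myh7 window held none of the 4 motifs. The Myl2 windows lie before RefSeq starts at bases 122092724 and 122093189, upstream of the gene start given above, and the first held a GATA hexamer and the second a TATAAA. Nppa and Nppb each held a TATAAA near the start. The Tnni3 window (chr7:4522529-4522778) and the Tnni1 windows lie within the gene spans given above. Myl7, at the limit of detection, held a GATA hexamer, an MCAT element and a CArG box, whereas Tnni3, among the most abundant, held none of the 4 motifs, like Myl4 and Tnni1. These matches are descriptions of the letters in the windows.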

How the data were processed

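Single-end 50-base reads of polyA and Ago2-bound RNA were counted per gene. Per the submitters' processing notes, alignment used TopHat2 2.0.10 on GRCm38 and counting used HTSeq. The deposited values are raw counts of the authors, whole numbers with no normalization. Libraries were assigned to groups by their labels. CPM were counts scaled to the total of each library.

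Counts were fitted with edgeR 4.0.16 (quasi-likelihood test, robust, TMM) in R 4.3.3, in 8 libraries per comparison and 16 for the ratio, after a filter of 1 CPM in 3 of 4 replicates of any group, which left 14897 genes. P-values, adjusted by Benjamini-Hochberg and called under 0.05, measure the spread between replicate cultures. Balances and levels against cardiac genes (0.5 count added) were compared by exact permutation tests in Python 3.11.15 with scipy 1.17.1. DESeq2 1.42.0, other scalings and filters, a replicate block and leaving out each library were alternatives. Replicate numbers paired no libraries (correlations of deviations -0.38 to 0.22). Gene models came from GENCODE M21, and union exons gave lengths.

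The genes and lists were chosen with earlier results of these data known. Scaling to cardiac genes and other lengths were added after seeing the data. Named genes are the 10 genes, Myl3, the 2 most abundant genes of a list and the 5 most similar genes. Irx4, Hand1, Akr1b7, the atrial genes other than Dkk3 and Nr2f2, and the mural genes other than Acta2 were named after their values were seen. Scripts were tested on simulated data.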

Additional observations from a re-analysis of the deposited data

Results flagged for a closer look

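Among 52 groups of 4 libraries examined, 2 held a library far from the others, where chance gives about 1 in 20. The Myh6:Myh7 balance of polyA miR-106b replicate 1 was 6.18 on the log2 scale, against 6.34 to 6.36 in the other libraries of its group. The Nppa:Nppb balance of polyA control replicate 3 was -1.31, against -0.94 to -0.88.

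The effect of miR-106b differed between Ago2-IP and polyA RNA by the interaction test of edgeR for 6 of 7 genes with TMM scaling, where 19.7% of all genes tested were called lower. The differences were -1.42 for Myh6, -1.48 for Myh7, -1.39 for Myl2, -1.29 for Nppa, -1.42 for Nppb and -1.39 for Tnni3, on the log2 scale. With libraries scaled to 14 cardiac genes, none of these 6 was called, and Myl4 differed by 1.49 (adjusted p = 0.0240), as 65.6% of all genes tested were called higher. Myl4 was not called without polyA control replicate 1 (1.27, adjusted p = 0.0563) or without Ago2-IP miR-106b replicate 2 (1.21, adjusted p = 0.0730).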

How the results depend on the processing

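With TMM scaling, the 6 abundant genes were called in polyA RNA with miR-106b, in both comparisons of Ago2-IP with polyA RNA and in the change of the ratio under every alternative run. Over the alternatives, 9.86 to 25.7% of all genes were called higher in the first of these. The shares were 17.8 to 38.7% higher in Ago2-IP against polyA control, 8.99 to 24.7% higher with miR-106b, and 6.91 to 26.5% lower in the ratio. With at least 10 counts required in every library, Myl4, at 4 to 22 counts, was not tested. Without the filter on low counts, 8 of 10 were called between Ago2-IP and polyA control, where 17.8% of all genes were called higher and 21.4% lower. The 6 changes in polyA RNA lay between 1.07 and 1.49 on the log2 scale over the alternatives, with a highest adjusted p of 0.00611. With a replicate block, 6, 6, 6 and 6 genes were called in these comparisons and 0 between the Ago2-IP groups, so that the block changed none of the counts of heart genes. Of all genes, 17.3, 34.5 and 17.5% were called higher with the block in the first 3 of these and 18.7% lower in the ratio. Between the Ago2-IP groups 0 heart genes were called under any alternative, and 0 to 40 of all genes. With libraries scaled to cardiac genes, dropping the filter gave 1 call in polyA RNA with miR-106b (Tnni1, -1.80, where 40.1% of all genes were lower), 2 between Ago2-IP and polyA control (Tnni1 at -3.83 beside Myl4, where 55.2% were lower) and 0 in the change of the ratio (29.8% higher), and 1 library left out gave 0 to 1 calls in polyA RNA (1 without polyA miR-106b replicate 1, where 76.8% of all genes were lower), 0 to 1 between Ago2-IP and polyA RNA with miR-106b (1 without polyA miR-106b replicate 4, where 62.7% were lower), and 0 to 1 in the ratio (0 without polyA control replicate 1 or Ago2-IP miR-106b replicate 2). The cause was not tested. Signs of differences that were not called changed in 13 of 178 alternative values with TMM scaling, in 66 of 378 with cardiac scaling, in 11 of 180 for the balances and in 44 of 400 for levels against cardiac genes. With 2 counts added in place of 0.5, none of the 20 balances passed, and Tnni3:Tnni1 between Ago2-IP and polyA control moved from 3.80 to 2.93 and Myl7:Myl2 between the Ago2-IP groups from -1.94 to -0.95. Myl7, Sln and Tnni1 are limited by depth, at 0 to 11 counts per library.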
